A study of Mus musculus with 15 samples.

Results

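The genes described here encode the proteins of the cytosolic ribosome. They were taken as every row of the count table whose symbol is Rpl or Rps followed by a number and at most one of the letters a, x or l, together with Rplp0, Rplp1, Rplp2 and Rpsa. The rule found 81 of 24015 rows, 49 for the large subunit and 32 for the small subunit. Of these, 77 passed a filter on low counts and were tested beside all 13578 genes that passed it. Subunit proteins with other symbols, such as Rps3a1 and Fau, fall outside the rule.

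The RNA came from regulatory T cells (Tregs), the CD4 T cells that restrain immune responses, which were sorted as CD45+CD3+CD4+YFP+ from adult C57BL/6 mice. All 5 groups carried Foxp3 cre-eyfp, an allele that makes Cre recombinase and YFP (yellow fluorescent protein) under the control of Foxp3, the gene that defines Tregs. Each group held 3 libraries, titled as biological replicates. Whether a library came from a single mouse or from pooled mice is not given in the sources used here, so p-values measure the spread between these libraries. Wild-type (WT) Tregs came from untreated dorsal skin and ears, from ears given MC903, and from axillary skin-draining lymph nodes (LN). Conditional knockout (cKO) Tregs, which also carried Rora fl/fl, came from untreated dorsal skin and ears and from MC903-treated ears. Rora encodes a nuclear receptor, and Cre acts on its floxed alleles in cells in which Foxp3 is active. MC903 (calcipotriol), a vitamin D analogue that inflames skin, was applied topically in ethanol on alternate days, 4 times in all. Skin was digested for 90 min with enzymes and LN were only homogenised, so tissue and preparation cannot be told apart. Untreated samples held dorsal skin and MC903 samples only ears, so treatment and skin site cannot be told apart either.

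The cytosolic ribosome joins a small subunit, which reads the mRNA, with a large subunit, which makes the peptide bond. Its protein genes are among the most actively transcribed in dividing cells, and most of their mRNAs begin with a 5′ terminal oligopyrimidine (TOP) tract, a run of C and U that lets mTORC1 and the RNA-binding protein LARP1 control their translation and stability. The transcription factor MYC is known to raise ribosomal protein genes and the factors that assemble ribosomes. Naive and resting lymphocytes hold few ribosomes and make many when activated.

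Libraries held 19774723 to 27745008 counts. Rora stood at 1327, 1341 and 1510 CPM (the counts-per-million scale, here on library sizes scaled by the trimmed mean of M-values, TMM) in WT untreated skin and at 822, 1074 and 1199 CPM in cKO untreated skin, where these counts cover the gene and do not single out the deleted part. Averaged over treatments its log2 fold change in cKO was -0.50 ± 0.10 (SE, adjusted p = 0.0193, edgeR quasi-likelihood test). All 8 Treg marker genes were detected in every group, and Foxp3 had a log2 fold change of skin over LN of 2.57 ± 0.26. The 8 did not move together: 4 were called higher and 3 lower in skin, with a median of 0.24. Over all tested genes 28.8% were called in each direction. Markers of other cells were present as well. The 7 B cell markers summed to 174 to 621 CPM in LN and to 7.85 to 12.2 CPM in WT untreated skin, where Ms4a1, Pax5 and Cr2 were at 0. The 11 keratinocyte markers summed to 434 to 816 CPM in WT untreated skin and to 31.5 to 33.7 CPM in LN, where Krt15 and Trp63 were at 0. The 9 fibroblast and endothelial markers summed to 94.7 to 178 CPM in WT untreated skin and to 112 to 156 CPM in LN, where Lum was at 0, and the 4 markers of CD8, NK and gamma-delta T cells to 8.84 to 11.8 and 38.1 to 55.4 CPM. The overlapping sums of fibroblast and endothelial markers hide differences between genes. Of 8 tested, 6 were called higher and 1 lower in skin, with a median log2 fold change of 5.59. Individual libraries stood apart. Of 73 ribosomal protein genes with a mean above 50 CPM, all 73 were highest in replicate 1 of cKO untreated skin within that group, all 73 were lowest in replicate 3 of LN, and 72 were lowest in replicate 3 of WT MC903 skin. Replicate 3 of LN also had the highest sum of B cell markers, 621 CPM against 200 and 174 CPM, and of macrophage, dendritic and Langerhans cell markers, 2192 CPM against 793 and 678 CPM. The part of these transcripts in the results below was not tested.

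Some members had rows at or near 0. Rpl10l and Rpl26 were at 0 in all 15 libraries, Rpl30 held 2 to 10 counts and Rpl3l 0 to 11 counts, and these 4 genes were not tested. Rpl30 and Rpl26 encode proteins that every ribosome contains, so a row at or near 0 is not read here as an absent mRNA. Rps27 held 32 to 123 counts and Rpl34 80 to 270 counts. In mouse transcripts of GENCODE M21, 98.5% of the 75-base windows of Rps27 also occur in another gene, chiefly the retrogene Rps27rt, whose own row was listed at 0. The share was 65.1% for Rpl30, 57.5% for Rpl26 and 41.4% for Rpl34, and also 91.9% for Rpl10 and 84.2% for Rpl9, whose rows were not low (8103 counts or more for Rpl9). How reads with several matches were counted is not given in the sources used here. The first 75 coding bases of Rps27, of Rps27rt and of Rps27l, the p53-induced paralog, are shown because a 75-base read within them fits the first and second alike and not the third. Capitals mark bases that differ from Rps27.
Rps27: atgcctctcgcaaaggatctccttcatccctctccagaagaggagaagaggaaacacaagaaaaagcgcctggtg
Rps27rt: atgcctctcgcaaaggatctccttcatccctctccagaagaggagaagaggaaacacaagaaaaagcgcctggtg
Rps27l: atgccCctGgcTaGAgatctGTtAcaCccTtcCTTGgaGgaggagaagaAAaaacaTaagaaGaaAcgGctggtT
Over the 252 coding bases, Rps27 and Rps27rt were identical, and Rps27 and Rps27l were 76.2% identical with 22 differences in the 75 bases shown. Rpl39 and its testis-expressed paralog Rpl39l were 85.0% identical over coding bases, and Rpl39l had 0% of its windows in any other gene.

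Ribosomal protein genes took the largest share of counts in LN Tregs and the smallest in untreated skin Tregs. The share was 5.70%, 5.67% and 4.65% of all counts in the 3 LN libraries, and 2.70%, 3.07% and 3.04% in WT untreated skin. It was 3.15%, 2.36% and 2.29% in cKO untreated skin, 3.91%, 3.87% and 3.12% in WT MC903 skin, and 3.48%, 3.90% and 3.46% in cKO MC903 skin. The means were 5.34% ± 0.596 (SD, n = 3) in LN, 2.94% ± 0.208 in WT untreated skin, 2.60% ± 0.480 in cKO untreated skin, 3.63% ± 0.445 in WT MC903 skin and 3.61% ± 0.252 in cKO MC903 skin. In raw shares every LN library lay above every skin library, and every MC903 library lay above every untreated WT library. Replicate 1 of cKO untreated skin lay within the range of WT MC903 skin. On TMM-scaled library sizes the means were 4.55% in LN and 3.19% in WT untreated skin, so part of the gap in raw shares follows the scaling. Neither separation held on that scale. The members summed to 36906 CPM in replicate 3 of LN, under 39432 and 37322 CPM in replicates 1 and 2 of WT MC903 skin and 39790 CPM in replicate 2 of cKO MC903 skin. Replicate 3 of WT MC903 skin, at 31439 CPM, lay under replicates 2 and 3 of WT untreated skin, at 34046 and 32388 CPM. Both subunits took part: large subunit genes made up 3.22% ± 0.337 of counts in LN and 1.81% ± 0.133 in WT untreated skin, and small subunit genes 2.13% ± 0.259 and 1.13% ± 0.0769. A share in bulk RNA cannot tell fewer cells of a type from less RNA per cell.

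**Figure D1:**
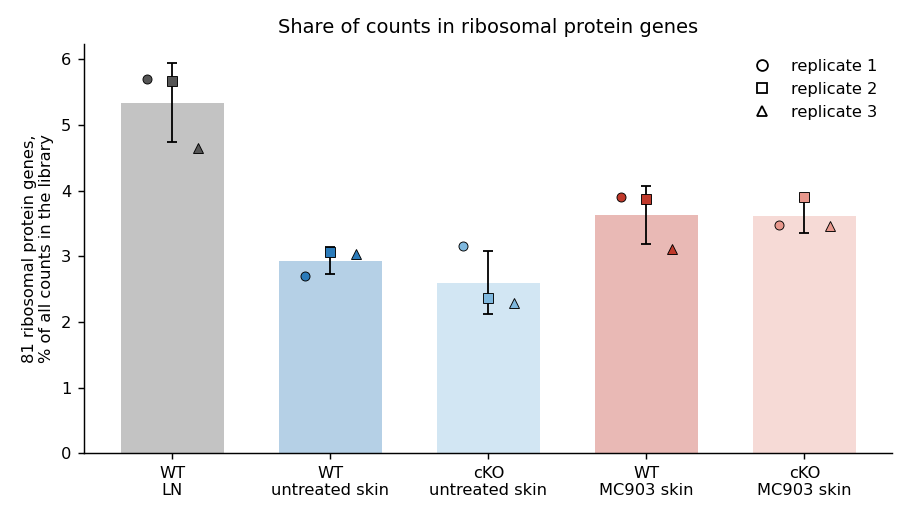
Share of each library's counts in the 81 ribosomal protein genes, in percent, by group; bars are means, error bars SD over 3 libraries, and symbols single libraries. In these raw shares LN libraries sit between 4.65% and 5.70%, above all skin libraries, which did not hold for replicate 3 of LN on TMM-scaled sizes, and replicate 1 of cKO untreated skin (3.15%) sits apart from the other libraries of its group.

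The first comparison asked how Tregs of untreated skin differ from those of the draining LN in WT mice. Of the 77 tested genes, 50 were lower and 5 higher in skin by edgeR's quasi-likelihood test at a Benjamini-Hochberg adjusted p under 0.05, and 22 did not pass. Over all tested genes 57.6% were called, 28.8% lower and 28.8% higher. The median log2 fold change of the 77 genes was -0.51, against 0.01 for all genes tested. Of the members 71 lay under and 6 above 0, where 49.6% and 50.2% of all genes did. Members tended to shift together between libraries of a group, so such counts of signs, here and below, are not separate results. Libraries of the groups did not overlap for 47 genes that were lower and 5 that were higher in skin, against 33.4% and 30.1% of all genes. In the large subunit 27 of 45 tested genes fell and 2 rose, with a median of -0.42, and in the small subunit 23 of 32 fell and 3 rose, with a median of -0.54. Without replicate 3 of LN and replicate 1 of cKO untreated skin, 68 genes were lower and 4 higher. With library sizes alone as the scaling, 72 were lower and 3 higher, while the median of all genes moved to -0.34 and that of the members to -0.86.

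The 8 genes of this set with the largest falls were Rps18, Rps15a, Rpl36a, Rps29, Rps7, Rps28, Rps19 and Rpl32. Rps18, in the head of the small subunit, stood at 1139, 1129 and 759 CPM in LN and at 425, 511 and 486 CPM in skin. The groups did not overlap, and the log2 fold change was -1.09 ± 0.20 (SE, adjusted p = 0.000246, edgeR quasi-likelihood test). Rps15a stood at 310, 363 and 220 CPM in LN and at 129, 149 and 152 CPM in skin, a fall of -1.06 ± 0.18 (adjusted p = 0.000108). Rpl36a, encoded on the X chromosome, stood at 153, 150 and 123 CPM in LN and at 68.2, 62.5 and 79.7 CPM in skin, a fall of -1.02 ± 0.16 (adjusted p = 6.23e-05). Every skin library lay under every LN library for all 3. Rps7, which binds the p53 regulator MDM2 when free of the ribosome, fell by 0.94 on the log2 scale, from 979, 1005 and 684 CPM to 457, 427 and 510 CPM. Rps29 fell by 0.97, Rps28 by 0.86, Rps19 by 0.83 and Rpl32 by 0.83 on the log2 scale. Rps19 is the gene most often mutated in Diamond-Blackfan anaemia, an inherited failure of red cell production. These 8 calls held in each of 16 alternative analyses.

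**Figure D2:**
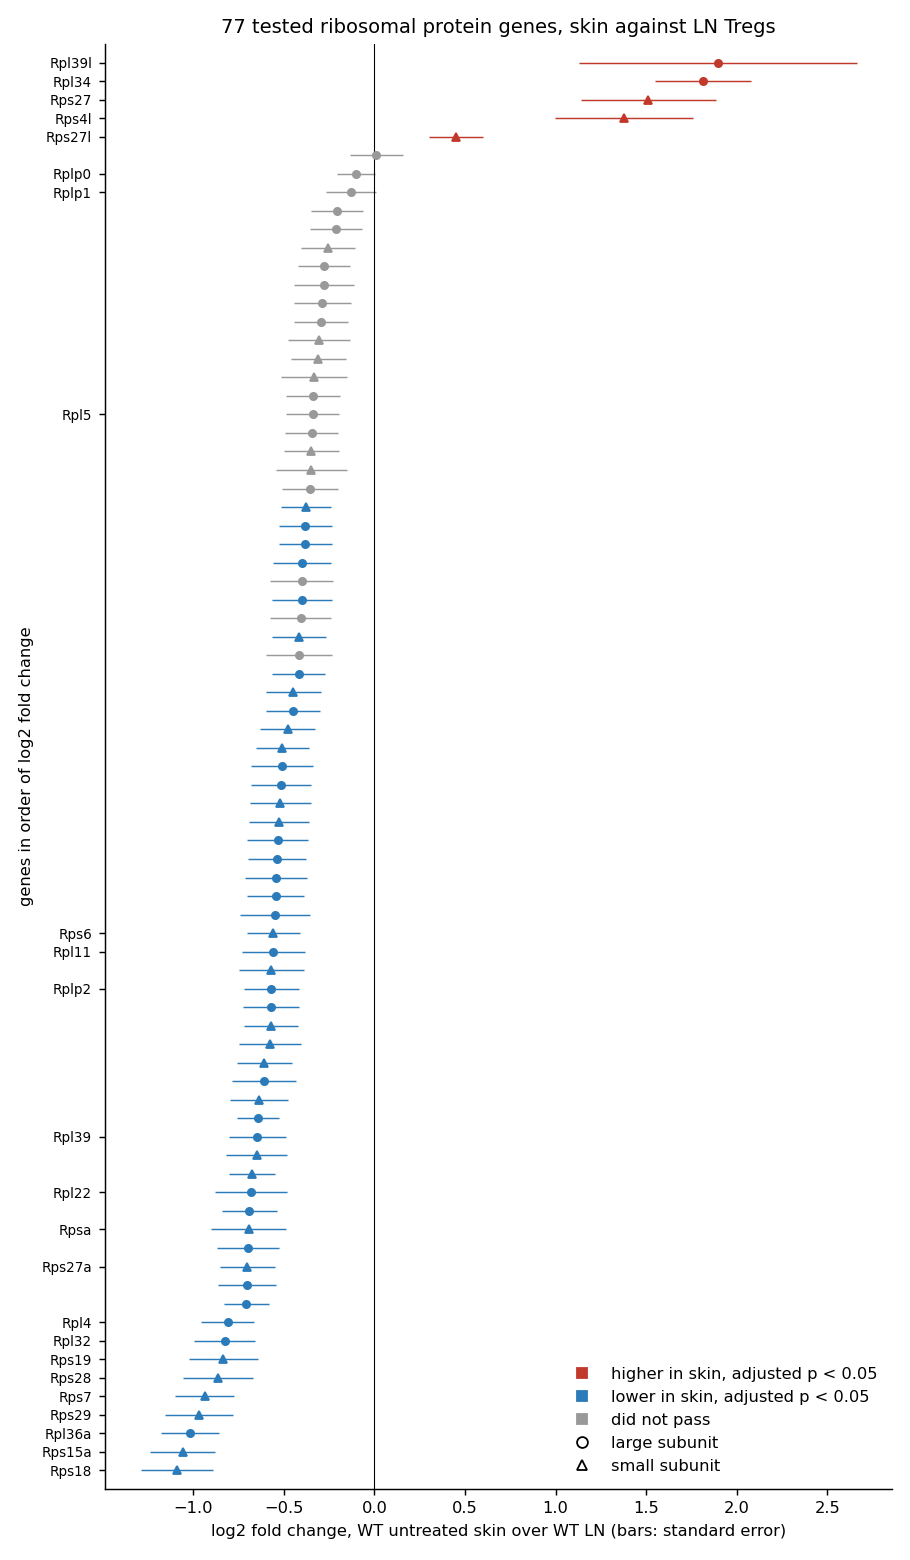
Log2 fold change of each of the 77 tested ribosomal protein genes in WT untreated skin over WT LN, with its standard error; circles are large and triangles small subunit genes, colour gives the call at adjusted p < 0.05, and some of the genes named in the text are labelled. The 50 genes lower in skin lie in blue left of 0, and Rpl39l, Rpl34, Rps27, Rps4l and Rps27l lie in red right of 0.

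Not every member of a functional site passed. In the P stalk, the arm of the large subunit that recruits elongation factors, Rplp2 fell and its partners did not pass. Rplp2 stood at 462, 466 and 352 CPM in LN and at 277, 303 and 283 CPM in skin (log2 fold change -0.57 ± 0.15, adjusted p = 0.00472, edgeR quasi-likelihood test). Rplp0, the base of the stalk, stood at 1541, 1568 and 1335 CPM in LN and at 1347, 1414 and 1379 CPM in skin, and the groups overlapped (-0.10 ± 0.11, adjusted p = 0.424). Rplp1 had a log2 fold change of -0.13 ± 0.14 (adjusted p = 0.438). With library sizes alone as the scaling both passed, at -0.46 and -0.48, where the median of all genes was itself -0.34. Of the 5S particle, which carries the 5S ribosomal RNA and binds MDM2, Rpl11 fell (-0.56 ± 0.17, adjusted p = 0.0119) and Rpl5 did not pass (-0.34 ± 0.15, adjusted p = 0.0546). The call for Rpl11 was lost without replicate 2 of LN (adjusted p = 0.0516), and Rpl5 passed in 5 of 16 alternatives.

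Around the exit tunnel of the growing chain, Rpl4 and Rpl39 fell and Rpl17 did not pass. Rpl4 stood at 1917, 1911 and 1415 CPM in LN and at 874, 1024 and 1093 CPM in skin (-0.81 ± 0.15, adjusted p = 0.000229, edgeR quasi-likelihood test). Of 7 genes at the mRNA entry and exit sites, 5 fell, with a median of -0.57, and Rps3 and Rps14 did not pass. Rpsa, which is also the laminin receptor, fell by 0.69 on the log2 scale. Rps6, whose protein is phosphorylated by S6 kinase downstream of mTORC1, stood at 1335, 1342 and 1012 CPM in LN and at 800, 841 and 866 CPM in skin (-0.56 ± 0.15, adjusted p = 0.00422). Rps27a, made as a fusion with ubiquitin, fell by 0.70 on the log2 scale, and Rpl22, needed for the development of alpha-beta T cells, by 0.68. Of 15 tested genes mutated in Diamond-Blackfan anaemia, 10 fell and Rps27 rose. Of all 77 tested members 50 fell, so these genes and those at the entry and exit sites fell about as often as the family.

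The 5 genes that were higher in skin were low-count rows or paralogs. Rps27l, the p53-induced paralog of Rps27, stood at 138, 181 and 159 CPM in skin and at 119, 118 and 113 CPM in LN. The groups did not overlap, and the log2 fold change was 0.45 ± 0.15 (adjusted p = 0.0175, edgeR quasi-likelihood test). That call did not hold when replicate 2 of WT untreated skin was left out (adjusted p = 0.0783) and with library sizes alone as the scaling, where the value was 0.09. Rps4l, a copy of the X-linked Rps4x annotated as a transcribed processed pseudogene, stood at 6.62, 13.5 and 13.3 CPM in skin and at 4.72, 3.55 and 4.58 CPM in LN (1.38 ± 0.38, adjusted p = 0.00604). Rps4x itself fell by 0.51 on the log2 scale.

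Rpl34 and Rps27, the rows with few counts, rose with them. Rpl34 stood at 7.80, 11.9 and 9.42 CPM in skin and at 2.91, 2.54 and 2.82 CPM in LN (1.82 ± 0.26, adjusted p = 2.79e-05, edgeR quasi-likelihood test). Rps27 stood at 3.64, 4.07 and 3.28 CPM in skin and at 1.35, 1.49 and 1.0 CPM in LN (1.51 ± 0.37, adjusted p = 0.00269). Rpl39l held 21, 32 and 57 counts in skin and 8, 30 and 7 counts in LN (1.90 ± 0.77, adjusted p = 0.0445). Its call was lost in 8 of 16 alternatives, the highest adjusted p being 0.19 with WT untreated skin replicate 3 left out. Whether the few reads counted for Rps27 and Rpl34 stand for their whole mRNA was not tested.

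Members fell at every level of shared sequence. Among 10 tested members with under 10% of windows in another gene, 7 fell and Rpl39l rose, with a median of -0.55. Among 38 tested members with over 50% of windows shared, 25 fell and Rps27 rose, with a median of -0.46. The authors' deposited table of the same comparison listed 46 members as higher in LN and 5 as higher in skin at adjusted p under 0.05, with a median log2 fold change of LN over skin of 0.46. All 51 were called in the same direction here. Of all genes with an adjusted p in the authors' deposited table, 57% were called.

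Promoters of the family carry common sequence features, which some but not all of the genes that fell most hold. RefSeq promoter windows (GRCm38.p6, from 250 bases before to 50 bases after the annotated start) were matched for 60 of the 81 genes. The letters CTTCCG, whose reverse complement CGGAAG is the core bound by ETS factors, were found on either strand in 41 of the 60 (68.3%) and in 18.8% of 27025 genes. The letters CTTTC on the transcribed strand within 25 bases of the start, the kind of pyrimidine run found at TOP starts, were found in 31.7% against 7.87%. AAGATGGC, the letters bound by YY1, were found on either strand in 8.33% against 3.19%, and TATAAA on the transcribed strand in 8.33% against 9.77%. CGGAAG and AAGATGGC can share the letters AAG, and CTTTC can share its last letter with CTTCCG. A match is a description and not a measured binding site. Windows from 60 bases before to 20 bases after the start are shown for 4 of the genes with the largest falls and for Rps27l, which rose. Capitals mark CTTCCG or CGGAAG. Their positions in GRCm38.p6 are chr17:33955646-33955725 (minus strand) for Rps18, chr7:118116128-118116207 (minus) for Rps15a, chrX:134585594-134585673 (plus) for Rpl36a, chr12:28635934-28636013 (minus) for Rps7 and chr9:66946026-66946105 (plus) for Rps27l.
Rps18: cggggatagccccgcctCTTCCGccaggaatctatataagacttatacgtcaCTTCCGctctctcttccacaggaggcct
Rps15a: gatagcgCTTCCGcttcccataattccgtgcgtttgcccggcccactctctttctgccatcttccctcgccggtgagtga
Rpl36a: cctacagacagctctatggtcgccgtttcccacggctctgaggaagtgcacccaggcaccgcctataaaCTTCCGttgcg
Rps7: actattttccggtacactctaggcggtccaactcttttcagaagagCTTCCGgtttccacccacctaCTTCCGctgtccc
Rps27l: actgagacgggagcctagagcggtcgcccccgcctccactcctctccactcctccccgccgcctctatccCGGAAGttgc
The same letters stood at a start that fell and at one that rose. The short windows of Rps27 and Rpl39l, which also rose, held these letters on neither strand and are not shown. In the longer windows, 26 of 40 tested members with CTTCCG fell and 4 rose, and 10 of 17 without it fell and 0 rose. Rps19, at a log2 fold change of -0.83, was among those without CTTCCG. Rps18, at -1.09, was among those without CTTTC at the start. The median log2 fold change of skin over LN was -0.53 over 40 tested members with CTTCCG and -0.51 over 17 without it, and it was -0.51 both over 19 with CTTTC at the start and over 38 without.

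Other genes of the translation machinery moved in both directions between skin and LN. Of 77 mitochondrial ribosomal protein genes, 53 were lower and 7 higher in skin, with a median of -0.70. Of 44 tested ribosome biogenesis factors, 22 were lower and 7 higher, with a median of -0.38. Among them Wdr12, of the complex that matures the large subunit, had a log2 fold change of -1.88 ± 0.17 (adjusted p = 1.45e-07, edgeR quasi-likelihood test) and Dkc1, the pseudouridine synthase, one of -2.27 ± 0.24 (adjusted p = 1.02e-06). Nop56, of the methylation complex that acts on ribosomal RNA, was higher by 1.13 ± 0.13 (adjusted p = 2.49e-06). Of 22 TOP transcripts that do not encode ribosomal proteins, 9 were higher and 7 lower, where 28.8% of all genes were called in each direction. Vim was higher by 2.80 ± 0.18 and Eef1g lower by 0.86 on the log2 scale.

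Initiation and elongation factors outside the TOP list were more often higher than lower in skin. Of 30 tested, 13 were higher and 5 lower in skin, with a median of 0.21. Over all genes 28.8% were called in each direction, the share to set beside this list and those that follow. Eif1, which guards the choice of start codon, was higher by 1.63 ± 0.14 (adjusted p = 1.54e-07, edgeR quasi-likelihood test), and Eif5 by 1.36 ± 0.11. Of 29 regulators of mTORC1, MYC and TOP mRNAs, 12 were higher and 7 lower. Myc stood at 229, 228 and 225 CPM in LN and at 98.6, 81.4 and 71.2 CPM in skin (-1.44 ± 0.19, adjusted p = 1.12e-05). Mxd1, an antagonist that competes with MYC for MAX, stood at 956, 664 and 770 CPM in skin and at 41.8, 44.8 and 38.3 CPM in LN (4.26 ± 0.16, adjusted p = 1.27e-11). Larp1 was higher by 0.92 ± 0.26 (adjusted p = 0.00624), Rheb, the activator of mTORC1, by 1.99 ± 0.12, and Mtor did not pass (0.45 ± 0.21, adjusted p = 0.0694). Of 11 tested p53 targets 8 were higher and none lower, led by Cdkn1a at 7.42 ± 0.25. Perp, at 6.20 ± 0.67, is also among the keratinocyte markers. A further list held subunit genes outside the symbol rule together with related genes that encode no subunit protein, and 8 of it were tested. In skin 3 were lower, Rpl7l1 and Rpl36al among them, and 1 was higher, Rps19bp1, which encodes a protein that binds Rps19. Rps3a1, a subunit gene in no list, was lower by 0.67 on the log2 scale.

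**Figure D3:**
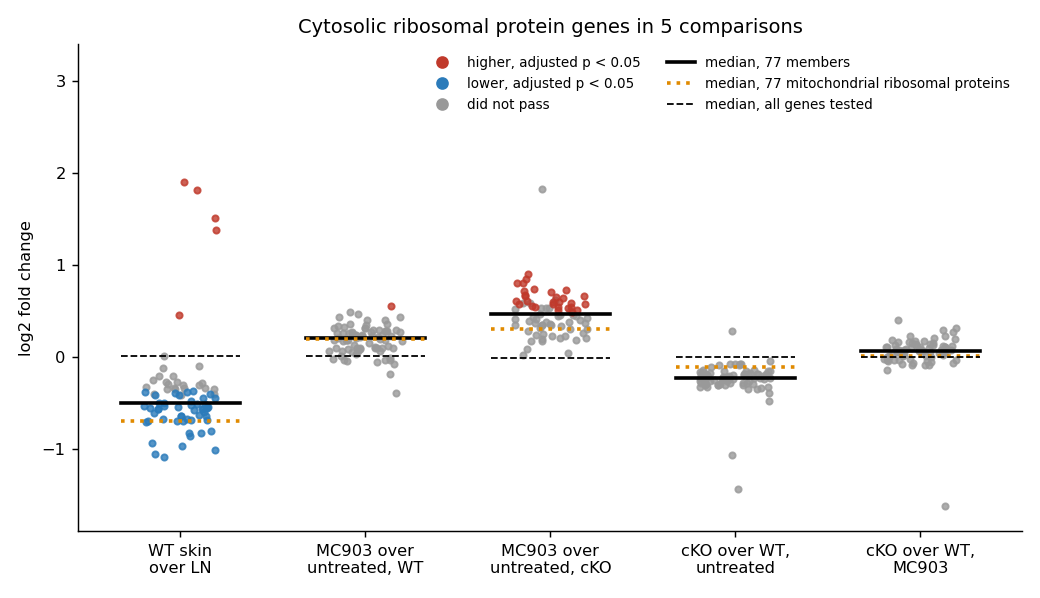
Log2 fold changes of the 77 tested ribosomal protein genes (points, red or blue at adjusted p < 0.05) in 5 comparisons, with the medians of these genes (solid line), of 77 mitochondrial ribosomal protein genes (dotted) and of all genes tested (dashed). The members lie mostly under 0 in skin over LN (median -0.51), above 0 with MC903 in cKO Tregs (median 0.47). The other medians are 0.20 with MC903 in WT Tregs, -0.23 for genotype in untreated skin and 0.06 for genotype in MC903 skin.

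The second question was how these genes differ between MC903-treated ears and untreated skin in each genotype, where treatment and skin site cannot be told apart. The WT comparison shares its untreated libraries with that of skin and LN. In WT Tregs 1 of 77 members was called higher and none lower by edgeR's quasi-likelihood test, where 10.5% of all tested genes were called, 5.03% higher and 5.44% lower. The median log2 fold change was 0.20, against 0.01 for all genes, and 67 members lay above 0, where 50.9% of all genes did. Libraries of the groups did not overlap for 9 members, all higher, against 15% of all genes higher and 13.2% lower. Rpl39, the small protein of the exit tunnel, stood at 111, 102 and 124 CPM in untreated skin and at 171, 178 and 144 CPM with MC903. The groups did not overlap, and the log2 fold change was 0.55 ± 0.16 (adjusted p = 0.0353). The call was lost in 5 of 16 alternatives, among them leaving out replicate 1 or 2 of WT untreated skin or replicate 1 or 2 of WT MC903 skin, at adjusted p of 0.0791 to 0.114. Rps6 had a log2 fold change of 0.40 ± 0.15 (adjusted p = 0.0903) and Rpsa one of 0.48 ± 0.21 (adjusted p = 0.155). Macrophage, dendritic and Langerhans cell markers summed to 641 to 1175 CPM in untreated and to 459 to 562 CPM in MC903-treated WT skin, without overlap. B cell markers did not overlap either, at 7.85 to 12.2 and 12.7 to 14.3 CPM. Sums of keratinocyte markers (434 to 816 and 194 to 554 CPM), of fibroblast and endothelial markers (94.7 to 178 and 142 to 402 CPM) and of CD8, NK and gamma-delta T cell markers (8.84 to 11.8 and 8.95 to 17.8 CPM) overlapped. The part of these markers in the WT values was not tested.

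In cKO Tregs 29 of 77 members were higher and none lower with MC903 by the same test, where 11.3% of all tested genes were called, 5.96% higher and 5.3% lower. The median was 0.47, against -0.01 for all genes, and all 77 log2 fold changes were above 0, where 49.1% of all genes were. The libraries of the groups did not overlap for 51 members, all higher with MC903, against 17.4% of all genes. In the large subunit 17 of 45 tested genes rose, with a median of 0.45, and in the small subunit 12 of 32, with a median of 0.53. Rpl39 stood at 139, 105 and 84.5 CPM in untreated and at 207, 211 and 197 CPM in MC903-treated cKO skin (0.90 ± 0.16, adjusted p = 0.00228, edgeR quasi-likelihood test). Rps21, a small protein of the small subunit, stood at 88.6, 61.6 and 59.0 CPM and at 115, 128 and 120 CPM (0.80 ± 0.17, adjusted p = 0.00736). Every MC903 library lay above every untreated library for both. Rps15a rose by 0.80 ± 0.18, Rpl37 by 0.73 ± 0.16 and Rpl41 by 0.72 ± 0.16, at adjusted p of 0.00944 to 0.0103.

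By role, Rpl39 and Rpl17 of the exit tunnel, Rpl11 of the 5S particle, Rps27a and Rpl22 rose in cKO Tregs with MC903. So did Rps6, from 940, 742 and 698 CPM to 1133, 1254 and 1044 CPM (0.53 ± 0.15, adjusted p = 0.0297, edgeR quasi-likelihood test). None of the 3 P stalk genes passed: Rplp0 had a log2 fold change of 0.20 ± 0.11, Rplp1 of 0.23 ± 0.14 and Rplp2 of 0.38 ± 0.15. Of the rows that were higher in skin than in LN, none passed: Rps27l had a log2 fold change of 0.25 ± 0.15, Rps4l of 0.04 ± 0.38, Rpl34 of 0.02 ± 0.26, Rps27 of 0.20 ± 0.36 and Rpl39l of 1.82 ± 0.76. This comparison shares no library with that of WT skin and LN. Of its 29 risers, 21 (72.4%) were among the 50 members lower in skin than in LN, which is 42% of those 50. Of all 77 tested members 50 were lower in skin and 29 rose, so the overlap lay near these shares.

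The count of calls in cKO Tregs rested on single libraries. The median log2 fold change lay between 0.38 and 0.64 when any single library of these groups was left out. Replicate 1 of cKO untreated skin had the highest level of the group in all 73 ranked members, and without it 57 members passed. Without replicate 2 of that group 4 passed and without replicate 3 there were 2. Rpl39 and Rps21 were the 2 calls that held in all 16 alternatives. Without replicate 1, 2 or 3 of cKO MC903 skin 16, 5 and 11 members passed. Without replicate 1 of cKO untreated skin and replicate 3 of LN together, 65 passed. The sum of macrophage, dendritic and Langerhans cell markers was 1571 CPM in replicate 1 of cKO untreated skin, 999 and 794 CPM in replicates 2 and 3, and 644 to 861 CPM with MC903. Keratinocyte markers summed to 381 to 568 CPM in untreated and to 163 to 339 CPM in MC903-treated cKO skin. Fibroblast and endothelial markers summed to 45.7 to 210 CPM in untreated and to 186 to 501 CPM in MC903-treated cKO skin, and all 8 tested had a log2 fold change above 0 (median 1.12, 1 called). B cell markers summed to 7.03 to 11.0 CPM in untreated and to 11.4 to 20.8 CPM in MC903-treated cKO skin, and markers of CD8, NK and gamma-delta T cells to 11.0 to 20.9 and 18.1 to 21.6 CPM. Their part in the result was not tested.

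**Figure D4:**
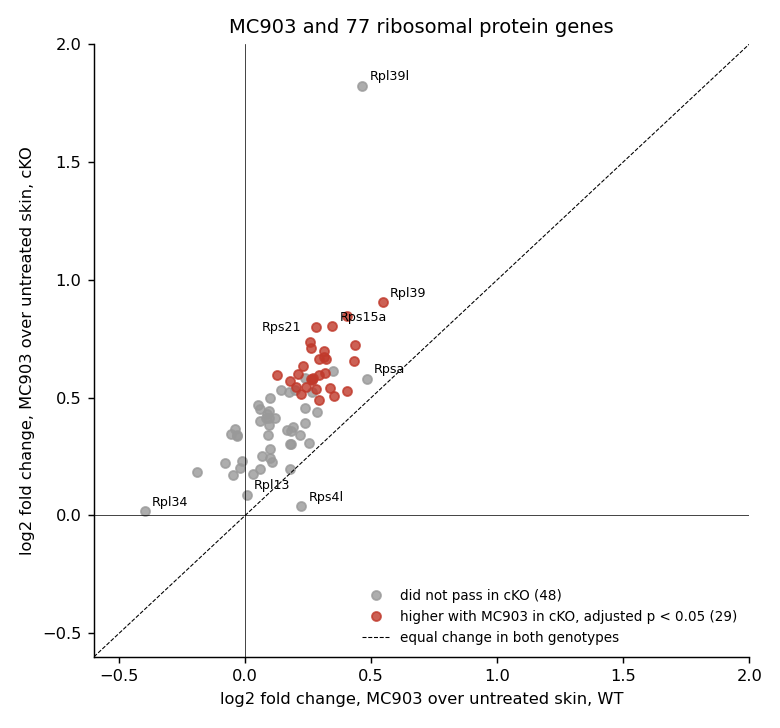
Log2 fold change with MC903 over untreated skin of each of the 77 tested members, in WT (horizontal axis) and in cKO Tregs (vertical axis); the dashed line marks equal change. All but Rps4l lie above the line, and the 29 members called in cKO Tregs lie between 0.49 and 0.90 on the vertical axis.

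That members passed in one genotype and not in the other does not show a difference, so the difference itself was tested. The genotype by MC903 interaction was called for no member and no gene, 0% of those tested, by edgeR's quasi-likelihood test. The smallest adjusted p among members was 0.866, and 2 members, Rpl7 and Rps21, had an unadjusted p under 0.05. Over all genes 765 had an unadjusted p under 0.05. DESeq2 called no member and 21 genes, and limma-voom called no member. The median interaction was 0.30 on the log2 scale, and 76 of 77 members were above 0, where 49.3% of all genes were. All 73 ranked members were highest in replicate 1 of cKO untreated skin within its group, so these signs are not separate results. The median interaction was 0.49 without that library, with no member called.

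The pathway lists held genes that moved in both directions with MC903. Over all genes tested 5.03% were called higher and 5.44% lower in WT, and 5.96% and 5.3% in cKO Tregs. Of 77 mitochondrial ribosomal protein genes, 7 rose and none fell in WT Tregs and 20 rose and 1 fell in cKO Tregs, with medians of 0.19 and 0.30. Of 44 biogenesis factors, 3 rose and 5 fell in WT and 1 rose and 8 fell in cKO Tregs. Nop56 fell in both, by 0.74 and by 0.85 on the log2 scale, and Gnl3, the nucleolar GTPase nucleostemin, by 0.52 and by 0.54. Wdr12 rose in both, by 1.06 ± 0.16 and by 0.56 ± 0.16. Of the 8 tested genes in the list of subunit and related genes outside the symbol rule, 4 rose in cKO Tregs, among them Rpl22l1 by 0.49, Fau by 0.60 and Rpl36al by 0.62 on the log2 scale, and none passed in WT. Myc rose in WT Tregs, from 98.6, 81.4 and 71.2 CPM to 125, 153 and 197 CPM (0.92 ± 0.19, adjusted p = 0.00664, edgeR quasi-likelihood test), and did not pass in cKO Tregs (-0.16 ± 0.19, adjusted p = 0.642). Its interaction was -1.08 ± 0.27 with an adjusted p of 0.659. Mtor and Larp1 passed in neither genotype. Of 22 TOP transcripts, none rose and 3 fell in WT, and 3 rose and 1 fell in cKO Tregs, where Eif3h rose by 0.69 ± 0.13.

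The third question was whether cKO Tregs differ from WT Tregs. In untreated skin no member was called by edgeR's quasi-likelihood test, where 0.803% of all tested genes were called, 0.398% higher and 0.405% lower. The median log2 fold change of cKO over WT was -0.23, against -0.0049 for all genes. Under 0 lay 76 of 77 members, where 50.6% of all genes did. Members shifted together between libraries, so these signs are not separate results. Libraries did not overlap for 3 members, all lower in cKO, against 6.22% of all genes lower and 7.37% higher. This comparison shares its cKO libraries with the MC903 comparison in cKO Tregs. At an unadjusted p under 0.05 stood 3 members, Rps4l, Rpl15 and Rpl7, DESeq2 called 1, Rps4l, and limma-voom called none. Replicate 1 of cKO untreated skin had a member share of 3.15%, above the 2.70% to 3.07% of the WT libraries. Without it the median was -0.42 and still no member passed. Without it and replicate 3 of LN together, 1 passed, Rpl7 at -0.50 (adjusted p = 0.0469). In MC903-treated skin no member was called either, where 0.258% of all genes were, 0.081% higher and 0.177% lower, and the median was 0.06. Libraries did not overlap for 2 members higher and 1 lower in cKO, against 7.81% and 8.19% of all genes. The 2 members Rps4l and Rplp1 had an unadjusted p under 0.05, DESeq2 called Rps4l, and limma-voom called none.

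Averaged over both treatments, Rps4l was lower in cKO Tregs and was the one member called, where 1.75% of all genes were called, 0.884% higher and 0.862% lower. Of the 77 members, 5 lay above 0, where 48.4% of all genes did. Rps4l stood at 6.62, 13.5 and 13.3 CPM in WT and at 4.40, 4.70 and 3.20 CPM in cKO untreated skin, and at 7.33, 19.3 and 12.4 CPM in WT and at 3.24, 3.64 and 5.77 CPM in cKO MC903 skin. In raw counts these were 140, 305 and 247, then 104, 109 and 82, then 196, 519 and 318, and then 75, 75 and 121. Each cKO library lay under each WT skin library, and the cKO levels lay in the range of the LN libraries, 3.55 to 4.72 CPM, apart from 1 library above and 2 below it. The averaged log2 fold change was -1.53 ± 0.27 (adjusted p = 0.00564, edgeR quasi-likelihood test), and it passed in each of 22 alternatives. The contrasts by treatment were -1.44 ± 0.38 (adjusted p = 0.11) and -1.62 ± 0.38 (adjusted p = 0.124). In GENCODE M21 on GRCm38, Rps4l lies at chr6:148354656-148355598. Its 943-base transcript aligned with the 789 coding bases of Rps4x at 79.9% identity over 785 positions. Rps4x had an averaged log2 fold change of -0.03 ± 0.10.

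Rplp1 was the member with the second smallest p in the averaged contrast, and it did not pass. It stood at 488, 567 and 518 CPM in WT and at 732, 560 and 611 CPM in cKO untreated skin, and at 612, 580 and 502 CPM in WT and at 752, 758 and 719 CPM in cKO MC903 skin. The groups overlapped in untreated skin and not with MC903. The averaged log2 fold change was 0.34 ± 0.10 (adjusted p = 0.118, edgeR quasi-likelihood test), and DESeq2 gave an adjusted p of 0.0264. Rplp0 had a value of -0.16 ± 0.08 and Rplp2 of -0.04 ± 0.11 in the same contrast. Rplp1 lies at chr9:61913284-61914542 and Rora at chr9:68653786-69388246 (GRCm38), 6.74 Mb apart, and Rps27l lies 1.70 Mb from Rora. Rps27l had an averaged log2 fold change of -0.14 ± 0.11 (adjusted p = 0.675). Of the biogenesis factors, Rrp9, which binds the U3 small nucleolar RNA, was lower in cKO Tregs (-0.42 ± 0.10, adjusted p = 0.0457), and no other gene of the pathway lists was called.

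**Figure D5:**
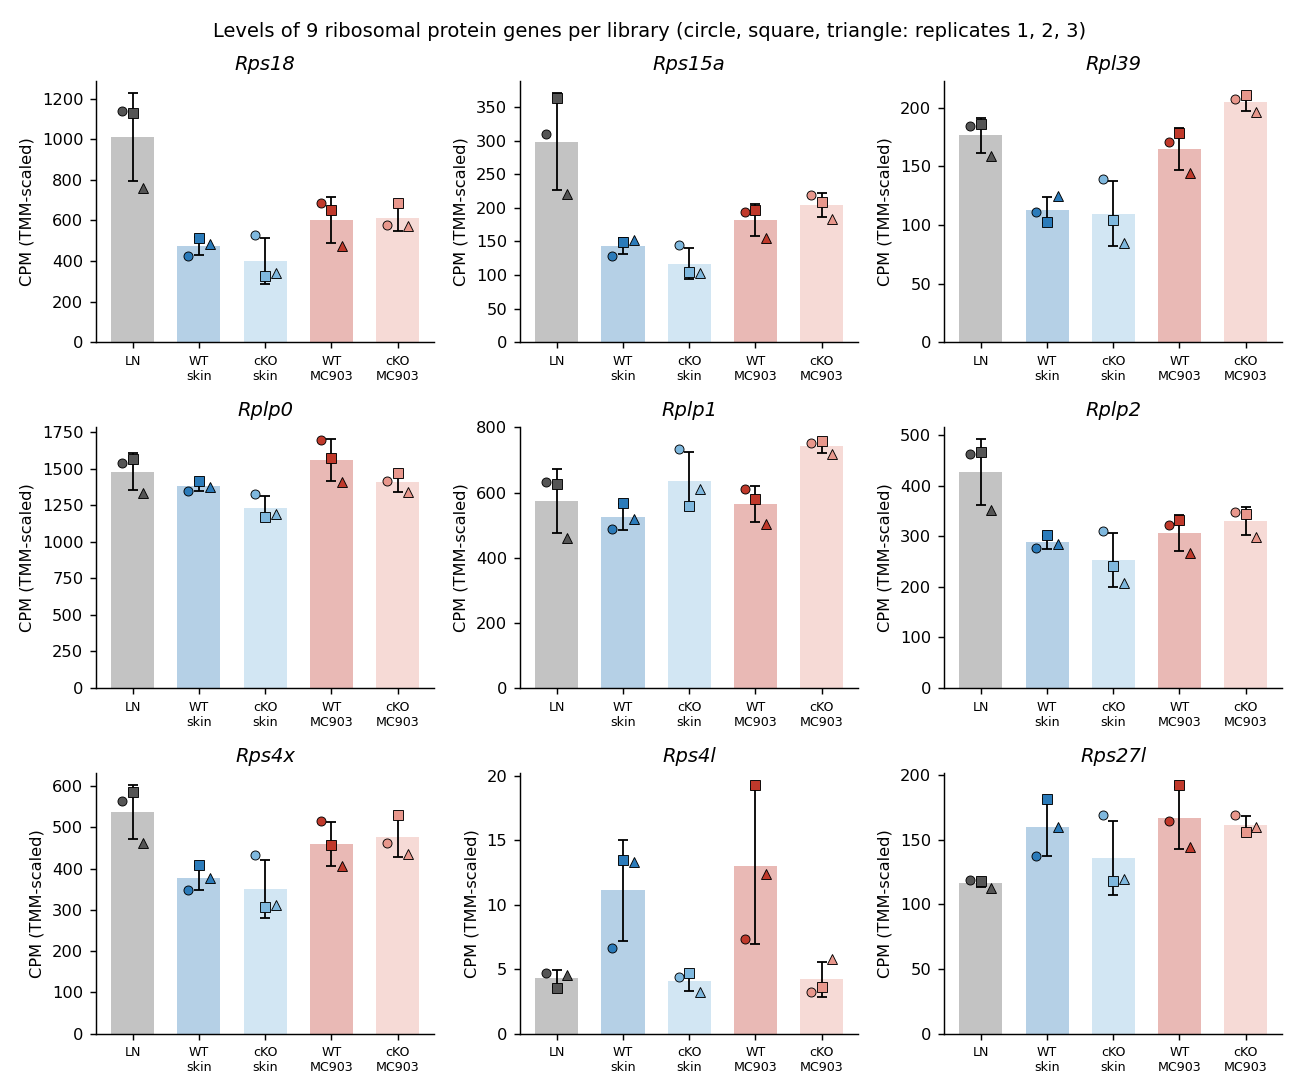
TMM-scaled CPM of 9 members in each library, with axes from 0; bars are means and error bars SD over 3 libraries. Rps18 and Rps15a are high in LN, Rpl39 is higher with MC903 in both genotypes, Rplp0 overlaps between LN and WT skin, and Rps4l lies under 6 CPM in all cKO libraries and above 6 CPM in all WT skin libraries.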

How the data were processed

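Reads were 75 bases, single-end, from SMART-Seq v4 libraries, per the labels' protocols. The submitters' processing notes name TopHat2 2.0.6, mm9 and DESeq2 (without a version). The read counter and its annotation are not given in the sources used here. The authors deposited raw counts per gene. Per the file headers, their LN against skin table holds a mean normalised signal, log2 fold changes with errors, a score that divides these, and p-values. Total counts per library were 19774723 to 27745008.

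The 81 members and the gene lists were chosen with earlier results of these data known. In R 4.3.3 with edgeR 4.0.16, filterByExpr over 5 groups kept 13578 of 24015 genes. A single model took in all 15 libraries, with TMM scaling (factors 0.903 to 1.26). Contrasts were tested by quasi-likelihood (robust F test), p-values were adjusted after Benjamini and Hochberg across the genes that passed, and values under 0.05 were called. Standard errors are the log2 fold change over the square root of F. The procedure was tested on simulated data with few changed genes, in balanced directions. That test does not cover scaling where many genes differ, as in skin against LN. Named members were a fixed set (stalk, 5S, paralogs and others), the 8 called with the largest change in each direction for skin against LN if their average was at least 3 log2 CPM, up to 6 called per direction elsewhere or the 3 with the smallest p, and members not tested. From each pathway list came up to 3 called genes. Other genes given with values were chosen after their values were seen. A few genes are not reported here by name.

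Alternatives were DESeq2 1.42.0, limma-voom (limma 3.58.1), relative log expression factors, TMM factors without the members, 2 other low-count filters, only the compared groups, the replicate number as a block, and each library left out. Added after seeing the data were library sizes alone, and 2 libraries left out together. Promoter windows are from RefSeq and transcripts from GENCODE M21. Neither is on mm9.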

Additional observations from a re-analysis of the deposited data

How the results depend on the processing

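No named member changed sign in any alternative. Of 55 calls in skin against LN, 35 held in all 16 alternatives, and of 29 with MC903 in cKO Tregs, 2 did. DESeq2 called 1 member lower in each treatment's genotype contrast and 1 higher in the averaged one, where the reported counts were 0. With only the compared groups, 0 members were higher with MC903 in WT Tregs. limma-voom called 58 higher with MC903 in cKO Tregs. With library sizes alone, 3 members were higher in skin than in LN with a median of -0.86, and 7 were higher with MC903 in WT. Without replicate 1 of cKO untreated skin and replicate 3 of LN together, 1 member was lower in cKO untreated skin, 4 were higher with MC903 in WT and 65 in cKO, and the median interaction was 0.49. The cause was not tested. Member shares on TMM-scaled sizes were 3.19% in WT untreated skin and 4.55% in LN. Leaving out single libraries gave 34 to 60 members lower and 4 to 5 higher in skin against LN, 0 to 2 higher with MC903 in WT, 2 to 57 in cKO, and median interactions of 0.20 to 0.49. With the replicate block, 50 members were lower and 4 higher in skin against LN, and 35 were higher with MC903 in cKO. The block moved no count of members by over 1.5 times. Libraries with the same replicate number shared little: of 30 such pairs, 1 had a correlation of deviations from the group means over 0.1 (range -0.249 to 0.103). Such values cannot exclude that libraries shared a mouse or a day, which the labels do not state. Over all genes, calls went from 109 to 344 (DESeq2) for genotype in untreated skin, from 35 to 151 (DESeq2), 104 (limma-voom) and 63 (without both libraries) for genotype in MC903 skin, from 237 to 485 and from 0 to 21 (DESeq2) for the averaged contrast and the interaction, from 1421 to 541 (compared groups) with MC903 in WT, and from 1529 to 2642 (limma-voom) in cKO. With 3 libraries a group, members with few counts had the widest errors, up to 0.77 log2 units for Rpl39l.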

Other observations

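The ratio of Rplp1 to Rplp0 within a library, chosen after the values were seen and not tested, was 0.363, 0.401 and 0.375 in WT untreated skin, 0.361, 0.369 and 0.356 in WT MC903 skin and 0.410, 0.40 and 0.345 in WT LN. It was 0.553, 0.478 and 0.513 in cKO untreated skin and 0.530, 0.515 and 0.537 in cKO MC903 skin. All 6 cKO libraries lay above all 9 WT libraries. A ratio of 2 genes shows unequal levels and not which of the genes differed.

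A list of factors that sense or rescue stalled ribosomes was outside the comparisons above. It also held Eif2ak3 and Eif2ak2, kinases that sense other stresses. Of 15 tested, 4 were higher and 3 lower in skin than in LN, no larger a share than the 28.8% called in each direction among all genes. Eif2ak3, the kinase PERK of the unfolded protein response, was higher by 3.4 ± 0.21 (adjusted p = 2.21e-09, edgeR quasi-likelihood test) and fell with MC903 by 1.22 in WT and by 0.88 in cKO Tregs on the log2 scale. Eif2ak2, the double-stranded RNA sensor PKR, was lower in skin by 1.48 on the log2 scale and rose with MC903 by 1.01 ± 0.19 in WT and by 0.81 ± 0.19 in cKO Tregs.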
